A study of Mus musculus with 2 samples.

Results

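Chromatin accessibility was examined at 10 genes known as targets of the glucocorticoid receptor: Fkbp5, Zbtb16, Ddit4, Tsc22d3, Per1, Mt2, Angptl4, Hif3a, Cebpd and Errfi1. All peaks that the authors' table assigns to the Ensembl identifiers of these genes were taken, 61 of the 58076 peaks in the table. The genes were put forward with ratios of these same data in view, above all those of Fkbp5 and Ddit4. Their values are therefore a description, and no test was made on them. The assay was ATAC-seq, in which the Tn5 transposase inserts adapters into open DNA, on nuclei of mouse heart. One library came from Ythdc1flox/flox mice, which carry the conditional allele and serve as controls, and 1 from cardiac-specific Ythdc1 knockout mice (Ythdc1 CKO). Both groups were 15 days old and on normal chow. The sources used here do not give the Cre line, the sex or the number of animals per library. The question was how loss of Ythdc1, a nuclear protein that reads N6-methyladenosine in RNA, alters open chromatin in the heart.

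Glucocorticoids enter cells and bind the receptor encoded by Nr3c1, which is held in the cytoplasm by heat shock proteins and their co-chaperones. The hormone-bound receptor moves to the nucleus and binds DNA at paired half-sites, often in enhancers far from the genes it controls, where chromatin opens further. In heart muscle the hormone is known for its part in maturation before and after birth. The 10 genes fall into roles: feedback on the receptor (Fkbp5), transcription regulators (Zbtb16, Tsc22d3, Cebpd, Hif3a), inhibitors of growth signalling (Ddit4, Errfi1), the clock (Per1), metal binding (Mt2) and lipid supply (Angptl4). Most of them also answer to other signals, among them hypoxia, fasting and stress.

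RefSeq promoter windows of GRCm38.p6, each with 250 bases before and 50 after a start site, were found for 7 of the 10 genes and numbered 11. Windows of Zbtb16, Angptl4 and Cebpd were not used here. Of the 11 windows, 7 lay wholly inside a peak of the same gene. The paired glucocorticoid response element was searched in a relaxed form, which fixes 4 bases of each half-site at their spacing of 3. None of the 11 windows held it on either strand, and 0.475% of all 32851 windows did. The half-site AGAACA, searched on both strands, was found in 1 of 11 windows, at the most upstream start of Tsc22d3, against 19.0% of all windows. An absent match says only that these letters are not in the window. Most of the differences described below lay outside these windows. Windows of 4 genes are printed, each lying in a peak whose counts are given below. Fkbp5 and Ddit4 were taken as the genes with the most peaks past 2-fold. Mt2 was taken for its repeated matches to a relaxed metal response core, and Per1 as the gene with the lowest ratio. A further Per1 window, also inside a peak, holds no E-box and was not printed. The windows are written 5′ to 3′ in the direction of transcription.
Fkbp5: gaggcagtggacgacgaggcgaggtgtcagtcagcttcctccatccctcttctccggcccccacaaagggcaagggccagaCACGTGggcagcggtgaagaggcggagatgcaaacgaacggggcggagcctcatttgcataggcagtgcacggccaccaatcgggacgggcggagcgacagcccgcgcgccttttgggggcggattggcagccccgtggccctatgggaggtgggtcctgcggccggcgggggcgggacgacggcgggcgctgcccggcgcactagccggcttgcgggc
Ddit4: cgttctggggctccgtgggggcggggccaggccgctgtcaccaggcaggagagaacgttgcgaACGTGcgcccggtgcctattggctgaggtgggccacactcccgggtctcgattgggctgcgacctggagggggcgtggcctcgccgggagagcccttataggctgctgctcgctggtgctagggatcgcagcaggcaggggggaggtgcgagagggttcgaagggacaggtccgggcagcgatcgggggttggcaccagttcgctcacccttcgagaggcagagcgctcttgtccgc
Mt2: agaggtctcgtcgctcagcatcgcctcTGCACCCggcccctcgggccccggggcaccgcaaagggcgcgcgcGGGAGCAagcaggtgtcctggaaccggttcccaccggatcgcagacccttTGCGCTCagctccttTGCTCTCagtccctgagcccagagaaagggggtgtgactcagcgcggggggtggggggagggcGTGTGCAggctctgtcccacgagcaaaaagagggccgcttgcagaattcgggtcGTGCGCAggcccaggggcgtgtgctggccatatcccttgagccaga
Per1: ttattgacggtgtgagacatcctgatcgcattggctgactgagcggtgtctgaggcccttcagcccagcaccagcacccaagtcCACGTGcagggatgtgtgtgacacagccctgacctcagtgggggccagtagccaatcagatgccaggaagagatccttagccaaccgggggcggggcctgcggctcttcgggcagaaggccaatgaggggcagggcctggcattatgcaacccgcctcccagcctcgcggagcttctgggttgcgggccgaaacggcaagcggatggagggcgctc
These are chr17:28486100-28486399, minus strand (Fkbp5), chr10:59951721-59952020, minus strand (Ddit4), chr8:94172368-94172667, plus strand (Mt2) and chr11:69098699-69098998, plus strand (Per1). Capitals mark the E-box CACGTG in Fkbp5 and Per1, a letter string held by 7.15% of all windows. In Ddit4 they mark ACGTG, a form of the core of the hypoxia response element. It was searched on both strands and present in 19.6% of windows, and other forms of the core were not searched. The E-box contains the 5 letters ACGTG on each strand. In Mt2 they mark TGCNCNC on either strand, a relaxed form of the metal response core TGCRCNC, where R is A or G. The relaxed form had 6 matches there. Among them TGCTCTC and GGGAGCA, the latter on the other strand, have T in place of R and so match the relaxed form alone. At least 1 match of the relaxed form occurs in 51.0% of windows and 6 or more in 0.225%.

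Peaks of the 10 genes were higher in the knockout library more often than peaks at large. Counts were scaled to the total of each library over all peaks (CPM), and ratios are knockout over control. Their exact (Clopper-Pearson) 95% intervals cover counting error only. With 1 library per genotype there is no spread between animals, so no difference below has a replicate check and no p-value is given. In bulk tissue, a change in the share of cells of a type and a change per cell cannot be told apart. Of the 61 peaks, 52 had a log2 ratio above 0, against 45.9% of all peaks. At least 2-fold higher, a rule of size, were 19 peaks, or 31.1%, against 6.09% of all peaks. Just 1 peak was at least 2-fold lower, against 8.96% of all. The median log2 ratio was 0.72, beside -0.05 over all 58076 peaks. The counting interval lay above 1 for 44 peaks (17.7% of all peaks) and below 1 for 1 peak (21.7%). These shares describe genes chosen from the same libraries and are not evidence beyond that choice. Fkbp5 and Ddit4 held 12 of the 19 peaks past 2-fold, and the other 8 genes had 7 of 41, with a median of 0.60.

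**Figure D1:**
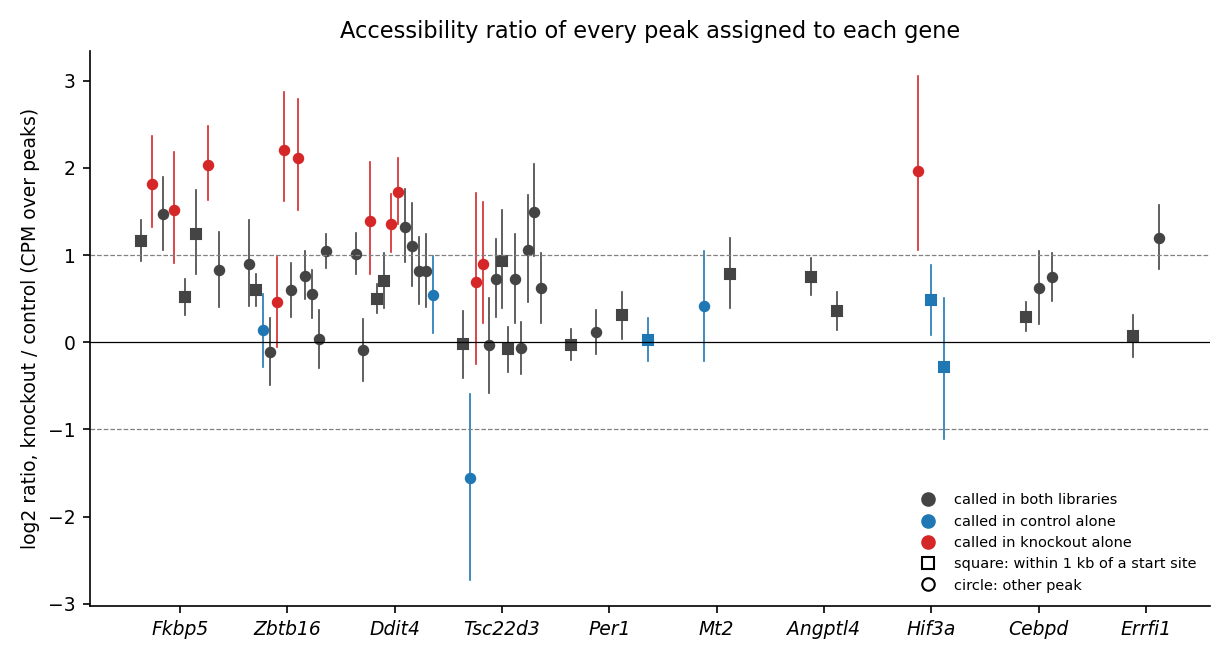
Each point is 1 peak of the named gene, ordered within a gene from upstream to downstream of its start site, and the vertical axis is the log2 ratio of knockout to control CPM. Bars are 95% counting intervals, colours show the library in which the authors called the peak, squares are peaks within 1 kb of a start site, and dashed lines mark 2-fold. All 8 Fkbp5 peaks lie above 0, and the 4 Per1 peaks lie near it.

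Fkbp5 (ENSMUSG00000024222), on the minus strand of chromosome 17 from 28398753 to 28486149 (GRCm38), encodes a co-chaperone that lowers the affinity of the receptor for hormone and so forms a feedback loop. All 8 of its peaks were higher in the knockout, 6 of them past 2-fold, and every counting interval lay above 1. The peak at the RefSeq start site (28485249 to 28486709) was its strongest by count in the control library, with 332 control and 456 knockout counts (ratio 1.43, 1.24 to 1.66). That was the smallest ratio among the 8. A second start site used by a longer Ensembl transcript lies 31.8 kb upstream. The peak there (28517475 to 28518395) had 215 control and 461 knockout counts (2.24, 1.90 to 2.65). Close to it, the peak from 28515936 had 42 and 143 (3.56, 2.51 to 5.14). The third of this cluster, from 28512677, had 67 and 178 (2.78, 2.08 to 3.73). The 3 peaks at this upstream end had the highest knockout signal per length in the gene, at 77.5, 91.0 and 79.8 CPM per kb of peak, against 48.3 at the RefSeq start. In the control library the same 3 peaks had 34.6, 25.6 and 28.7 CPM per kb and the RefSeq start 33.7. By this measure the cluster was near or below the level of the RefSeq start in the control and above it in the knockout. The measure averages over peaks of unequal width. The 3 peaks are 920, 243 and 345 bases wide, in the same order, and the peak at the RefSeq start 1460.

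The largest ratio of Fkbp5 was inside the gene, 65.6 kb downstream of the RefSeq start (28420177 to 28420833), where 60 control counts stood against 237 (4.13, 3.10 to 5.57). It was flanked by weaker differences. The peak from 28428507, at the start of a short transcript, had 53 and 121 counts (2.39, 1.71 to 3.36), and the peak from 28407414, in intron 8 of 10, had 74 and 126 (1.78, 1.32 to 2.40). The remaining peak, in an intron of the longer transcript (from 28502193), had 30 and 83 counts (2.89, 1.88 to 4.55). The peaks from 28420177, 28502193 and 28515936 were called in the knockout library alone and so were selected for a high count there. The other 5 were called in both libraries, and their summed log2 ratio was 0.92, against 1.11 for all 8.

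Ddit4 (ENSMUSG00000020108), on the minus strand of chromosome 10 from 59949675 to 59951770, encodes REDD1, an inhibitor of the growth kinase complex mTORC1 that is induced by glucocorticoids, hypoxia and energy stress. Of its 12 peaks, 11 were higher in the knockout with intervals above 1, and 6 were past 2-fold. The promoter peak (59951589 to 59952665), which holds the printed sequence, had 532 control and 720 knockout counts (1.41, 1.26 to 1.58). A second peak inside the gene (from 59950737) had 140 and 219 counts (1.63, 1.32 to 2.04). As at Fkbp5, the start site was strong in both libraries and had a smaller ratio than most peaks around it. Past the 3′ end of this short gene, the peak from 59947635 had 78 and 247 counts (3.31, 2.55 to 4.32), the largest ratio of the gene. The peak next to it, from 59948867, had 108 and 265 (2.56, 2.04 to 3.24). Its knockout signal of 108 CPM per kb of peak stood beside 103 at the promoter, where the control values were 42.2 and 73.2. The widths were unequal, 379 bases against 1076 at the promoter, and the value per kb averages over the width.

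Farther out, Ddit4 had 4 peaks between 30.5 and 35.4 kb downstream, with control counts of 56 to 92 and knockout counts of 106 to 155, and ratios from 1.46 to 2.16. The peak 8.57 kb downstream had 68 and 164 counts (2.52, 1.89 to 3.39). Upstream, the peak from 59957406 had 30 and 76 counts (2.65, 1.71 to 4.18), and the peak from 59969771, 18.4 kb from the start, had 223 and 432 (2.02, 1.72 to 2.39). Between them lay the single Ddit4 peak with a ratio under 1 (from 59965139), which had 140 and 126 counts and an interval of 0.733 to 1.20. Higher and near-equal peaks were therefore neighbours within the same stretch upstream. The peaks from 59947635, 59948867 and 59957406 were called in the knockout alone, and the 8 called in both libraries had a summed log2 ratio of 0.70, against 0.83 for all 12.

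**Figure D2:**
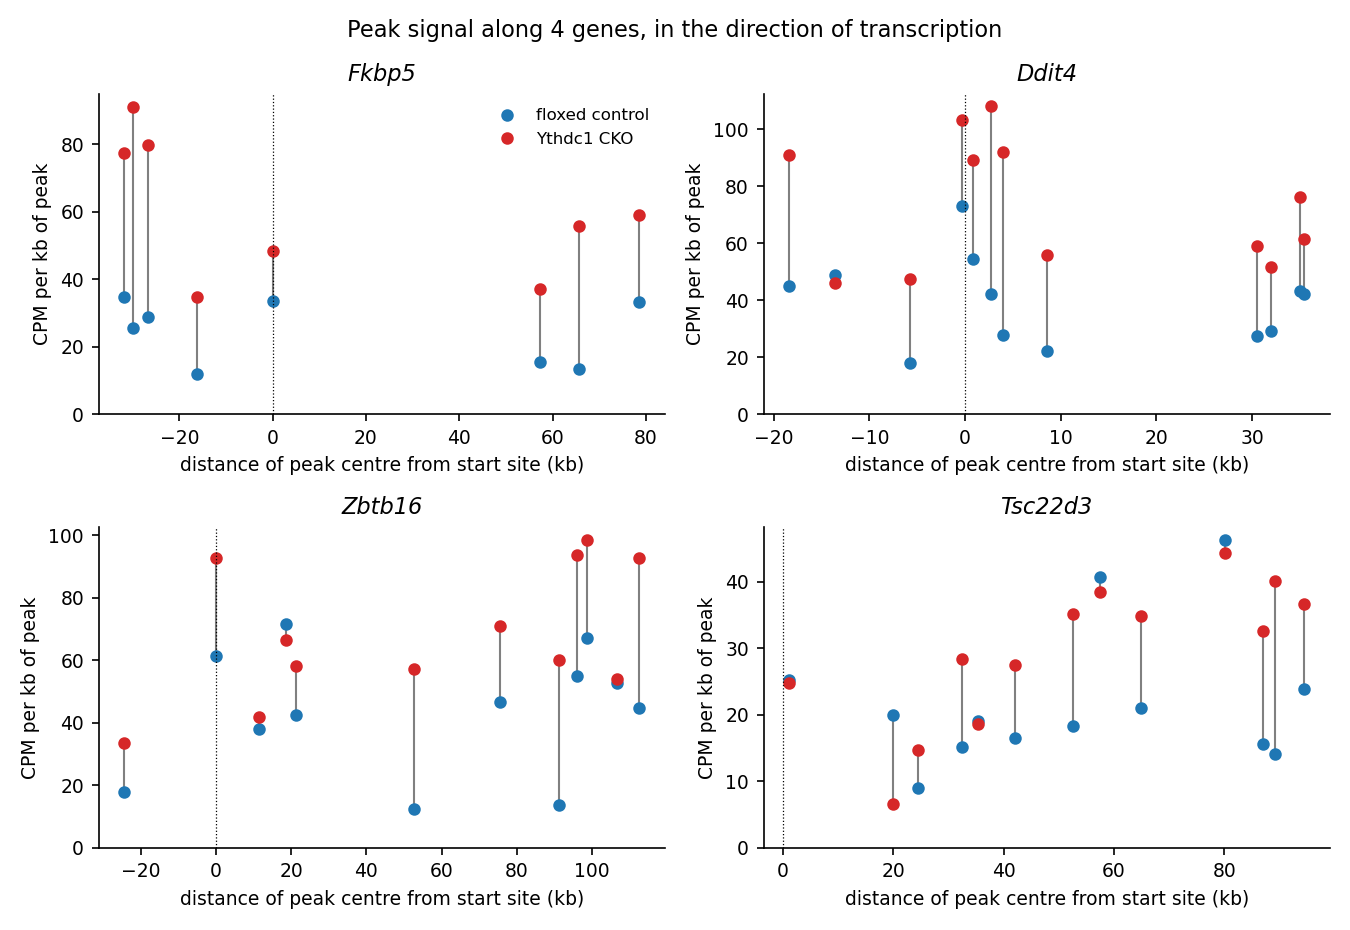
Signal of every assigned peak of Fkbp5, Ddit4, Zbtb16 and Tsc22d3 in CPM per kb of peak, placed by the distance of its centre from the RefSeq start site (dotted line), with negative distances upstream. Blue points are the floxed control library, red points the knockout library, and grey lines join the same peak; at Fkbp5 the start-site pair (33.7 and 48.3) is closer than the upstream cluster.

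Zbtb16 (ENSMUSG00000066687), on the minus strand of chromosome 9 from 48651797 to 48836225, encodes PLZF, a BTB zinc finger repressor that is strongly induced by glucocorticoids in many cell types. Of its 12 peaks, 11 had a log2 ratio above 0, 8 had an interval above 1 and 3 were past 2-fold. The promoter peak (48835647 to 48836650) had 415 and 601 counts (1.51, 1.33 to 1.72). Both of the largest ratios were at weak peaks in intron 2 of 6. The peak from 48783307, 52.7 kb downstream of the start, had 28 and 125 counts (4.66, 3.08 to 7.30). The other, from 48745001 and 91.1 kb downstream, had 27 and 113 (4.37, 2.85 to 6.92). Each was called in the knockout alone. A strong peak called in both libraries, in intron 3 (from 48723191), had 322 and 637 counts, a ratio of 2.07 (1.80 to 2.37). Next to it, the peak from 48729471 had nearly equal counts, 156 and 153 (1.02, 0.814 to 1.29). The 3 intronic peaks nearest to the promoter, 11.4 to 21.4 kb from the start, had intervals that hold 1, with 96 and 101, 125 and 111, and 57 and 75 counts. The intervals above 1 thus stood at the promoter, upstream of it and farther than 50 kb into the gene.

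Tsc22d3 (ENSMUSG00000031431), on the minus strand of the X chromosome from 140539528 to 140600522, encodes GILZ, a leucine zipper protein that carries much of the anti-inflammatory action of glucocorticoids. Its 13 peaks ran in both directions: 8 were above 0, 2 were past 2-fold higher and 1 was past 2-fold lower. Peaks at both ends of the gene were near equal. The peak at the start of the short transcript (140542589 to 140543541) had 262 and 237 counts (0.945, 0.789 to 1.13), and the peak beside the start of the long transcript (from 140598993) had 117 and 110 (0.982, 0.750 to 1.29). Both peaks past 2-fold higher lay beyond the 3′ end. There, called in both libraries, stood the peak from 140511049 with 43 and 117 counts (2.84, 1.99 to 4.13). Beside it the peak from 140513367, also called in both, had 35 and 70 (2.09, 1.37 to 3.23). In the same stretch the peak from 140520088, the strongest distal one, had 202 and 185 counts (0.957, 0.780 to 1.17). The peak that was lower, in intron 2 of 3 (from 140580446), had 35 and 11 counts (0.328, 0.150 to 0.661) and was called in the control alone. Of the other 7 peaks, with control counts of 16 to 89, 5 had intervals above 1. These included 3 inside the gene, from 140547778 (1.92), 140567873 (1.87) and 140558139 (1.66). Summed over all 13 peaks the ratio was 1.26 (1.16 to 1.37).

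Per1 (ENSMUSG00000020893), on the plus strand of chromosome 11 from 69095108 to 69109965, encodes a repressor of the circadian clock and is a fast target of the receptor. All 4 of its peaks lay close to its annotated start sites, and none was past 2-fold in either direction. The peak at the first start site (from 69094675) had 537 and 504 counts (0.981, 0.867 to 1.11). The peak over the printed sequence (from 69098671) had 217 and 257 (1.24, 1.03 to 1.49), and was the only one whose interval did not hold 1. The others had 262 and 272, and 278 and 271. The summed ratio was 1.05 (0.974 to 1.14), the lowest of the 10 genes, and on the scale of the authors' RPM (reads normalized by their own constant for each library) its log2 value was -0.098. The sources used here do not state the time of day of collection.

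Mt2 (ENSMUSG00000031762), a metallothionein gene on the plus strand of chromosome 8 from 94172618 to 94173567, had 2 peaks. Its promoter peak (94172317 to 94172884) holds the window with 6 matches to the relaxed metal response core. This peak had 87 and 144 counts, a ratio of 1.73 (1.32 to 2.28). The peak 5.16 kb upstream had 40 and 51 (1.33, 0.863 to 2.07), an interval that holds 1. The neighbouring paralogue Mt1 had 1 peak, with 233 and 241 counts and a ratio of 1.08 (0.899 to 1.30).

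Angptl4 (ENSMUSG00000002289), on the minus strand of chromosome 17 from 33774900 to 33781575, encodes a secreted inhibitor of lipoprotein lipase that also answers to PPAR receptors and hypoxia. The promoter peak (33780935 to 33782019) had 312 and 503 counts, a ratio of 1.68 (1.46 to 1.95). The second peak, inside the gene (from 33779249), had 305 and 374 (1.28, 1.10 to 1.495). Both peaks were called in both libraries and both intervals lay above 1.

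Hif3a (ENSMUSG00000004328), on the minus strand of chromosome 7 from 17030993 to 17062427, encodes an alpha subunit of the hypoxia-inducible factors, some forms of which oppose the others. Its assigned peaks had few counts. The peak 5.42 kb upstream (from 17067710) had 12 and 46 counts (4.005, 2.09 to 8.31) and was called in the knockout alone. The peaks inside the gene, called in the control alone, had 92 and 123 counts (1.40, 1.06 to 1.85) and 32 and 25 (0.816, 0.464 to 1.42). None of the 3 was called in both libraries. The authors assign 2 further peaks within the span of Hif3a to another identifier (ENSMUSG00000108807). The stronger of these (17058088 to 17058659), 4.05 kb downstream of the start, had 184 and 511 counts, a ratio of 2.90 (2.45 to 3.45), and was called in both libraries. The other had 134 and 182 (1.42, 1.13 to 1.79). So the largest gain in counts within the Hif3a span lay in a peak that the gene assignment leaves out.

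Cebpd (ENSMUSG00000071637), a leucine zipper transcription factor gene of the acute response on the plus strand of chromosome 16 from 15887286 to 15889545, had 3 peaks, all called in both libraries and all with intervals above 1. The promoter peak (15886649 to 15887912) had 539 and 632 counts (1.22, 1.09 to 1.38). The peak just past its 3′ end (from 15889640) had 84 and 124 (1.54, 1.16 to 2.06). The peak 61.2 kb downstream (from 15948202), which lies in an intron of the neighbouring gene ENSMUSG00000041974, had 176 and 283 (1.68, 1.39 to 2.04). The promoter had the smallest ratio here too.

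Errfi1 (ENSMUSG00000028967), on the plus strand of chromosome 4 from 150853796 to 150868889, encodes MIG6, an inhibitor of the epidermal growth factor receptor. Its promoter peak (150854710 to 150855593) lay at an annotated start inside the gene, centred 1.36 kb downstream of the start of the printed span. This peak had 285 and 286 counts (1.05, 0.887 to 1.24). The promoter window at the start of the printed span overlapped no peak of the gene. The peak beyond the 3′ end (150871457 to 150872180), 18.0 kb downstream of the start, had 92 and 202 (2.29, 1.78 to 2.97) and was called in both libraries. The gene thus had a near-equal peak at this inner start and a single downstream peak past 2-fold.

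Ordered by counts summed over all assigned peaks, Fkbp5 came first, with 873 control and 1805 knockout counts (ratio 2.16, 1.99 to 2.34). It was the only one of the 10 past 2-fold higher as a sum, and 3.12% of all 24480 identifiers were. None was past 2-fold lower (5.66% of all), and all 10 were above 0 (44.6% of all). Ddit4 followed at 1.78 (1.67 to 1.89) and Zbtb16 at 1.62 (1.53 to 1.72). Mt2 was at 1.6 (1.28 to 2.02), Hif3a at 1.49 (1.19 to 1.87) and Angptl4 at 1.48 (1.34 to 1.65). The last 4 were Cebpd at 1.36 (1.24 to 1.49), Errfi1 at 1.35 (1.18 to 1.55), Tsc22d3 at 1.26 (1.16 to 1.37) and Per1. Fkbp5 stood apart from Ddit4 by these intervals, and every other pair of neighbours overlapped except Tsc22d3 and Per1. For 9 of the 10 the interval lay above 1, against 16.8% of all identifiers, for none below 1 (23.6%), and the median log2 value was 0.57, against -0.05. Intervals of sums narrow as counts rise, and the identifiers behind these shares were not matched to the 10 genes by counts.

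Likeness of pattern was taken as the share of a gene's peaks past 2-fold higher, over the 2324 matched genes with at least 5 peaks. Fkbp5, with 6 of 8, ranked 3, Ddit4 ranked 10, Zbtb16 132 and Tsc22d3 454. In 0.688% of these genes 50% or more of the peaks were past 2-fold. Those with the highest shares beside Fkbp5 were Eif5al3-ps (4 of 5), Gm11814 (4 of 5), Arnt2 (3 of 5) and Cyp1b1 (3 of 5). Eif5al3-ps and Gm11814 are weakly covered loci with 98 and 76 control counts, and reads of the former pseudogene may be shared with its parent gene. Arnt2, a partner of basic helix-loop-helix factors, had 190 and 309 counts, and Cyp1b1, a cytochrome P450 gene, had 235 and 374.

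The peaks of the 10 genes were also grouped by distance to the nearest annotated start site. Within 1 kb of a start, 2 of 19 were past 2-fold higher, with a median log2 ratio of 0.48, and the same class over the whole table had 2.7% past 2-fold and a median of -0.02. None of the 19 was past 2-fold lower (2.87% of the class). Of the 42 peaks outside this class, 17 were past 2-fold higher (7.79%) and 1 lower (12%). The pair past 2-fold higher near a start were both at alternative starts of Fkbp5. From 1 to 10 kb, all 14 peaks were above 0 and 9 were past 2-fold (7.19% over the table). The median of this class was 1.37, against -0.05 over the table. The 9 past 2-fold all belonged to Fkbp5 or Ddit4, except the Hif3a peak with 12 and 46 counts. Distance and gene were therefore not separated here. Beyond 10 kb, 8 of 28 were past 2-fold with a median of 0.76, against 8.25% and -0.13. The peaks within 1 kb were also the stronger ones, with a median of 262 control counts, against 63.5 for those at 1 to 10 kb and 84.5 beyond. No test was made of the difference between these classes.

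**Figure D3:**
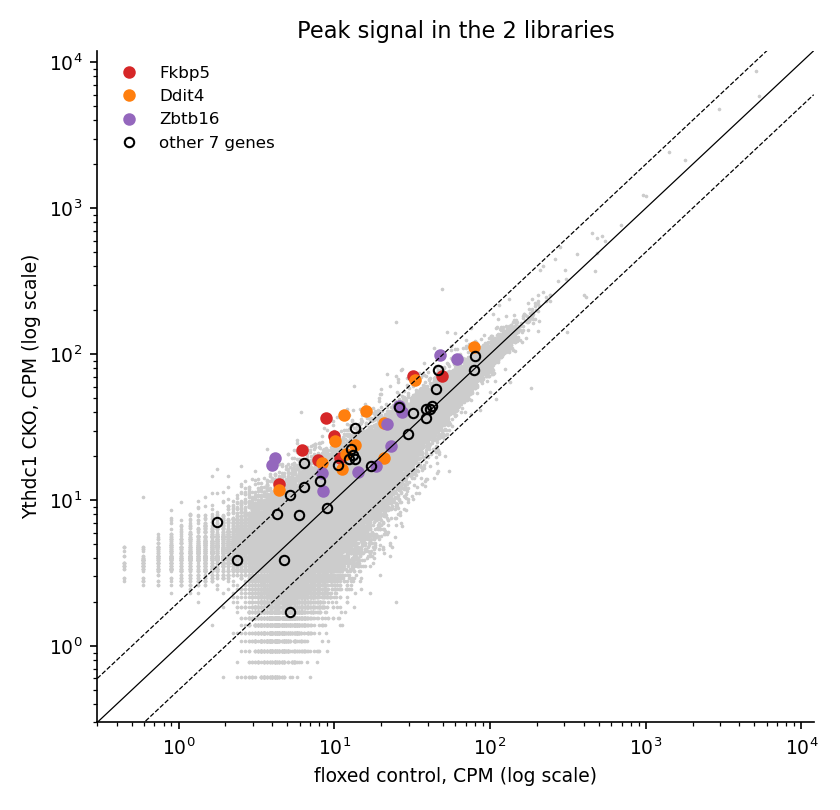
Control (horizontal) and knockout (vertical) CPM of all 58076 peaks in grey, both axes on a log scale, with the peaks of the 10 genes on top. The solid line marks equality and the dashed lines 2-fold; Fkbp5, Ddit4 and Zbtb16 peaks past 2-fold reach from weak peaks up to the Zbtb16 peak with 322 and 637 counts.

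Signal strength and peak calling move with the ratios, so both were read against the same classes of the whole table. Among peaks with a mean under 50 counts, 1 of 6 was past 2-fold higher (11.5% of all such peaks) and 1 of 6 lower (17.7%). At a mean of 50 to 100 counts, 9 of 17 were past 2-fold higher (4.12% of all such peaks), at 100 to 200 counts 6 of 20 (1.78%), and at 200 or more 3 of 18 (0.414%). The 3 strongest of these were the upstream start of Fkbp5, the peak from 59969771 of Ddit4 and the intron 3 peak of Zbtb16. Of the 61 peaks, 42 were called in both libraries (55.0% of all peaks), and 10 of these were past 2-fold, against 0.851% of all peaks called in both. A further 12 were called in the knockout alone (15.9% of all peaks), with 9 past 2-fold against 35.3%. The other 7 were called in the control alone (16885 of all 58076 peaks), with none past 2-fold higher against 0.0118%. A peak called in 1 library alone was selected for a high count there. The shares of such peaks past 2-fold therefore follow in part from the calling. The peaks nearest to the 2-fold line were, inside it, those with 223 and 432 counts (Ddit4, 2.02), 322 and 637 (Zbtb16, 2.07) and 35 and 70 (Tsc22d3, 2.09). Outside it were 2 peaks of Tsc22d3 with 43 and 79 (1.92) and 29 and 52 (1.87), and 1 of Zbtb16 with 56 and 100 (1.87).

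Neighbouring peaks assigned to other identifiers were examined within 50 kb of each start site. Of 48 such peaks, 38 were above 0, 5 were past 2-fold higher and 1 was past 2-fold lower, with a median log2 ratio of 0.22. Over all peaks, 45.9% were above 0, 6.09% past 2-fold higher and 8.96% past 2-fold lower, with a median of -0.05. At Fkbp5 all 3 were past 2-fold. The one inside the gene (28463773 to 28464603), assigned to ENSMUSG00000117294, had 66 and 224 counts (3.55, 2.68 to 4.74), and those upstream had 234 and 450 (2.01, 1.71 to 2.36) and 62 and 130 (2.19, 1.61 to 3.01). The higher signal around Fkbp5 therefore reached past the peaks assigned to it. At Ddit4, 5 of 7 were above 0. Past 2-fold was 1 assigned to Anapc16, 27.4 kb upstream of Ddit4 (from 59978831). It had 119 and 275 counts (2.41, 1.94 to 3.02) and was called in the knockout alone. Those below 0 were also upstream and assigned to Anapc16, and were called in the control alone. They had 68 and 43 counts (from 59988133, 0.661, 0.440 to 0.982) and 125 and 92 (from 59972581, 0.769, 0.581 to 1.01). None of the 12 around Per1, 7 around Mt2, 9 around Angptl4, 4 around Errfi1 and 1 at Cebpd was past 2-fold higher.

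Genes of the receptor and its partners ran in both directions, with a summed level of 1669 CPM in the control library and 1685 CPM in the knockout. Nr3c1, which encodes the receptor, had 8 peaks, 2 of them above 0, none past 2-fold higher and 2 past 2-fold lower. Its summed counts were 1299 and 1114, a ratio of 0.896 (0.826 to 0.971). Of 14 measured genes out of 15 for the receptor, its hormone-converting enzymes, chaperones and cofactors, 5 were above 0 as a sum (44.6% of all identifiers), and the median log2 ratio was -0.11, beside -0.05 over all identifiers. The interval lay above 1 for 3 of them (16.8% of all identifiers) and below 1 for 5 (23.6%). The 3 with the largest differences were Hsd11b1, which regenerates active hormone (36 and 77 counts, ratio 2.23, 1.49 to 3.42), Nr3c2, the mineralocorticoid receptor (948 and 670, 0.738, 0.668 to 0.816), and Fkbp4, the co-chaperone that counteracts FKBP51 (425 and 300, 0.737, 0.634 to 0.857). Hsd11b1 rests on a single weak peak.

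Other known glucocorticoid targets also ran in both directions, with more of them higher on the CPM scale. Of 19 measured genes out of 20, 13 were above 0 as a sum (44.6% of all identifiers) and 6 below. None was past 2-fold as a sum, where 3.12% of all identifiers were higher and 5.66% lower. Their median log2 ratio was 0.14, beside -0.05 over all identifiers. On the authors' RPM scale 9 of the 19 were above 0, against 6536 of 24480 identifiers. The interval lay above 1 for 10 of the 19 (16.8% of all identifiers) and below 1 for 4 (23.6%). Per2, the paralogue of Per1, had the highest ratio, with 823 and 1511 counts (1.92, 1.76 to 2.09) and 3 of 4 peaks past 2-fold. Cdkn1a, a cell cycle inhibitor, had 195 and 312 (1.67, 1.39 to 2.01). In the opposite direction, Lpin1, a phosphatidate phosphatase of lipid synthesis, had 1042 and 583 (0.585, 0.527 to 0.647). Over all 85 peaks of this list, 7 were past 2-fold higher and 6 lower, 8.24% in the higher direction against 6.09% of the table.

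Lists for other signals that share members with the glucocorticoid response gave medians of 0.17 for 13 hypoxia targets, 0.12 for 15 PPAR targets and 0.01 for 15 clock genes. Above 0 were 9 of 13, 11 of 15 and 8 of 15 of them, in the same order (44.6% of all identifiers). Intervals lay above 1 for 7, 6 and 5 (16.8% of all identifiers) and below 1 for 2, 2 and 1 (23.6%). No gene of these lists was past 2-fold as a sum, where 3.12% of all identifiers were higher and 5.66% lower. Among hypoxia targets the largest differences were at Car9 (89 and 159 counts, 1.87, 1.43 to 2.45), Adm (1.496) and Bnip3 (1.32), and among PPAR targets at Plin5 (0.680), Ucp3 (0.755) and Pdk4 (1.32). Clock genes beside Per2 were led by Npas2 (1.23) and Hlf (0.830). The 19 paralogues of the 10 genes had a median of 0.06, with 11 above 0. Their largest differences were at Per2, Mt3 (42 and 67 counts, 1.67, 1.12 to 2.51) and Fkbp4. The authors' RPM scale shifts every summed log2 ratio by the same -0.17, so it moves all lists and the whole table together. On it the medians of other targets, paralogues, PPAR targets and clock genes were below 0, at -0.03, -0.11, -0.05 and -0.16. The hypoxia targets had a median of 0.0007 on it, with 7 of 13 above 0, against 6536 of 24480 identifiers. The median of all identifiers was -0.22. On that scale 9 of the 10 genes and 47 of their 61 peaks were above 0, against 33.0% of all peaks, and 14 peaks were past 2-fold higher (4.01% of all). With edgeR's TMM factors 19 were (6.81%), with a lowess trend against signal removed 21 (8.98%), and among peaks with fold enrichment of at least 10 the number was 18 (3.6%).

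**Figure D4:**
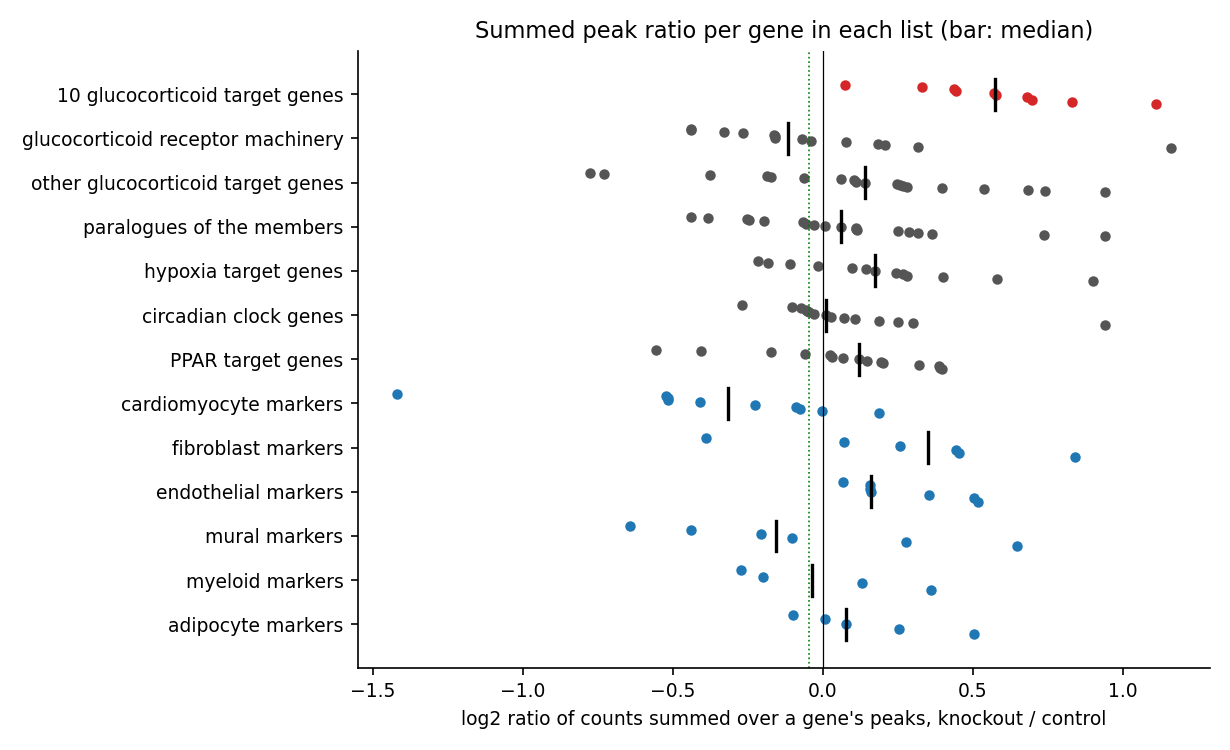
Each point is 1 gene, placed on the horizontal axis by the log2 ratio of counts summed over its peaks (knockout over control), for the 10 genes in red, related lists in grey and cell type markers in blue. Black bars are list medians and the dotted line is the median of all identifiers (-0.05); the median of the 10 genes is 0.57.

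Whole-library facts and cell type markers bear on all of these values. The libraries held 6755590 (control) and 6466537 (knockout) counts in peaks. The single Ythdc1 peak, at its promoter, had 358 and 314 counts, which is no check of the deletion, since the deleted stretch may lie elsewhere in the gene. All 10 cardiomyocyte markers had peaks, 1 of 10 was above 0 (44.6% of all identifiers were) and their median log2 ratio was -0.32. Their counts ran from 374 to 2760 per gene in the control and 287 to 2483 in the knockout, and the summed level was 1938 and 1592 CPM. Fibroblast markers (6 of 7 measured, 182 and 212 CPM) had 5 above 0 and a median of 0.35, and endothelial markers (7 of 7, 698 and 808 CPM) had 7 above 0 and a median of 0.16. On the RPM scale these medians were -0.49 for cardiomyocyte, 0.18 for fibroblast and -0.01 for endothelial markers, beside -0.22 for all identifiers. On that scale 1 of 10 cardiomyocyte, 4 of 6 fibroblast and 3 of 7 endothelial markers were above 0, against 6536 of 24480 identifiers. Among cardiomyocyte markers the largest differences were at Actc1, cardiac actin (1573 and 563 counts, ratio 0.374, 0.339 to 0.412), Pln (0.696) and Tnni3 (0.699). Actc1 was the only marker past 2-fold lower (5.66% of all identifiers were). Among fibroblast markers the largest differences were at Col1a2 (1.79), Tcf21 (1.37) and Pdgfra (1.36), and among endothelial markers at Vwf (1.43), Tie1 (1.42) and Sox18 (1.28). The cardiomyocyte marker above 0 was Tnnt2 (1.14, 1.07 to 1.21), and the fibroblast marker below 0 was Postn (0.764, 0.629 to 0.927). The medians were -0.16 for 6 mural, -0.04 for 4 of 6 myeloid and 0.08 for 5 of 6 adipocyte markers. No peak was assigned to Lum (fibroblast), Cd68 and Lyz2 (myeloid), Cidec (adipocyte), or Star, Cyp11b1, Cyp21a1 and Nr5a1 (adrenal cortex). The part of cell composition in the ratios of the 10 genes was not tested.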

How the data were processed

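ATAC-seq was measured in 2 heart libraries, 1 per genotype. BWA, MACS2 and GRCm38.p6 appear in the submitters' processing notes, and the sources used here do not give read filters, duplicate removal or a Tn5 shift. The authors deposited whole-number counts per merged peak with no normalization, per the file headers. In the authors' RPM columns each value equals the count plus 1, times a constant per library. The authors' fold enrichment is a ratio used only as a threshold for peaks, and the deposited log2 fold change, the log2 ratio of RPM, was not used. Peak coordinates are printed as the table gives them, and whether its starts count from 0 or 1 is not stated there.

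Identifiers took RefSeq symbols by position: a span overlap over union of at least 0.5 and 2 times the next candidate, or both ends within 1 kb, or, with gene ontology terms, at least 95% inside 1 protein-coding gene; 18508 of 24480 (75.6%) matched, all 10 members by span or ends. The spans compared are those of transcripts listed in the table, and the gene spans printed are those of RefSeq. Log2 ratios used CPM over peaks with 0.5 counts added per library (sums without), and intervals used scipy 1.17.1. edgeR 4.0.16 gave TMM factors for an alternative. Steps were tested on simulated data. Members and lists were chosen with earlier results of these data known. Named beside the 10 genes were the 3 genes of each list with the largest absolute summed ratio among those with at least 100 counts (values for mural, myeloid, adipocyte and adrenal markers are given by list), and the 5 with the highest share of peaks past 2-fold. Nr3c1, Mt1, Tnnt2, Postn and the flanking peaks were chosen after their values were seen. Alternatives were scaling, pseudocount, thresholds and peak sets.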

Additional observations from a re-analysis of the deposited data

How the results depend on the processing

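Peaks at least 2-fold higher numbered 19 and stayed within 1.5 times of that on the RPM scale (14, against 4.01% of all peaks), with TMM, with median centring, with a lowess trend removed, with a pseudocount of 5, with at least 50 mean counts, with fold enrichment of at least 10 and within 50 kb (17 of 91 peaks). They numbered 10 of the 42 called in both libraries, 37 with the 1.5-fold rule (against 14.4% of all peaks) and 7 without Fkbp5 and Ddit4, an alternative chosen after seeing the data. The count of 1 lower peak became 0 with lowess, among peaks called in both, with at least 50 mean counts and with fold enrichment of at least 10, and 2 within 50 kb. The median log2 ratio of 0.72 ranged from 0.46 (within 50 kb) to 0.77 (TMM). Per1 changed sign on the RPM scale, with a summed log2 ratio of -0.098. Of the other 78 alternative sums, 66 lay inside the counting interval and 12 outside it. On the RPM scale these were Fkbp5 at 0.94, Zbtb16 at 0.52, Ddit4 at 0.66, Tsc22d3 at 0.16, Angptl4 at 0.40 and Cebpd at 0.27. Among peaks called in both they were Fkbp5 at 0.92 and Ddit4 at 0.70, and within 50 kb Zbtb16 at 0.46, Mt2 at 0.25, Angptl4 at 0.28 and Cebpd at 0.30. The RPM shift is the same for every peak. TMM and median centring shift every sum by nearly the same amount, 0.0520 and 0.0516. Where a peak set kept all peaks of a gene, the sum of that gene equals its main value by construction. Such sums are among the 66. Otherwise the peak sets differ by construction. Hif3a has no value among peaks called in both, and a pseudocount does not enter the sums. A stricter form of the response element, with a full half-site on either strand, can match only where the relaxed form does. Its 0 matches in the 11 windows were therefore fixed in advance and add nothing. No paired analysis was possible because there is 1 library per genotype and the labels carry no replicate numbers. Depth limits the weakest peaks: the Hif3a peak with 12 and 46 counts has an interval of 2.09 to 8.31. With no replicate, no alternative bears on variation between animals.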
